A study of Mus musculus with 4 samples.

Results

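Leukocytes from KPC tumors treated with a STING agonist and an LTβR agonist together were compared with leukocytes from untreated KPC tumors by single-cell RNA-seq. The cells came from the library labeled STING and LTbR agonist (hereafter the combination) and from the library labeled Untreated, which share a count matrix in which a suffix of the barcode names the library. Cells were kept with between 300 and 5000 genes detected and no more than 6% of UMIs from mitochondrial genes (UMIs are unique molecular identifiers, each of which stands for 1 captured RNA molecule). This left 5333 combination cells and 6783 untreated cells, 12116 of the 23011 cells that passed the same limits in the 4 libraries of the series. Both groups were young adult male C57BL/6NHsd mice with subcutaneous tumors grown from KPC cells, a pancreatic cancer line from a genetically engineered mouse whose tumors are driven by Pdx1-Cre. Untreated mice received neither agonist. Combination mice received the STING agonist ADU-S100 once into the tumor and the agonistic anti-LTβR antibody 4H8 repeatedly into the peritoneum. Tumors were collected weeks after the single ADU-S100 dose and days after the last antibody dose, so the first hours after the STING agonist were not sampled. The tumors of a group were pooled before dissociation and sorting of live CD45+ cells, so that each library is 1 pool from 1 tumor line and holds no value per animal. Single-cell sequencing was done more than once in the study, and no source names the run behind these libraries.

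STING is a sensor of cyclic dinucleotides in the cytosol that switches on the kinase TBK1, the transcription factor IRF3 and thereby type I interferon, and also NF-κB. LTβR is a receptor of the TNF receptor family on stromal and myeloid cells, largely missing from lymphocytes, which binds lymphotoxin and LIGHT and directs the growth of lymph nodes through non-canonical NF-κB. Its activation in tumors is known for the formation of high endothelial venules, through which B and T cells enter.

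Each cell was placed in a class by raw UMIs of marker genes, and a cell that passed the gates of more than 1 class was left out as mixed. UMIs were summed over the cells of a class in each library and expressed as CPM (counts per 10 to the power 6 UMIs of the class), with exact Poisson 95% intervals. Differences are log2 ratios of combination over untreated after 10 CPM were added to both, given with bounds that set opposite ends of the 2 intervals against each other. The added 10 CPM understates the difference of low genes. There was 1 library a group, so no test was made, and bounds and intervals cover counting error only. They leave out the spread between pools of tumors. Those of CPM and of log2 ratios also leave out the spread between cells, so they are too narrow where few cells hold most UMIs. A gene was counted in a class when the mean of its 2 CPM values was at least 50 and it was no gate gene, and a gene past 2-fold had a log2 ratio of 1 or more in size.

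The untreated library held 60770280 UMIs in 7191 barcodes and the combination 42710099 UMIs in 5869 barcodes, with medians of 7094 and 5877 UMIs per kept cell. More than 6% mitochondrial UMIs were found in 2.71% of untreated and 6.78% of combination barcodes. The 2 libraries shared 59 barcodes, and doublet scores over 0.2 were given to 3.35% and 2.42% of kept cells. The classes were read against markers that no gate of a class used, although C1qa also served to split macrophages and monocytes into sub-gates. Trac, the constant gene of the T cell receptor α chain, was at 438 and 297 CPM in CD8 T cells and at most 23 CPM in classes other than T cells. C1qa, a complement gene of macrophages, was at 860 and 854 CPM in macrophages and monocytes, and S100a8, a calcium-binding protein of neutrophils, at 20113 and 20693 CPM in neutrophils. Among markers of other cells, those of fibroblasts and erythrocytes stayed below 10 CPM in every class, and those of tumor epithelium were highest in B cells (39.9 and 25.7 CPM), as were those of endothelium (179 and 183 CPM). Most of these markers were at 0 in untreated B cells, 7 of 9 for epithelium and 6 of 7 for endothelium. In combination B cells 5 and 3 were at 0. The 6 plasmacytoid dendritic cell markers summed to 1245 and 1157 CPM in dendritic cells and to 1010 and 1080 CPM in B cells. In B cells 3 of these 6 were at 0 in the untreated library and 2 in the combination. The part of plasmacytoid cells in these sums was not tested.

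The targeted receptors were read first. Tmem173, the gene of STING, was at 85.2 CPM in untreated and 90.4 CPM in combination macrophages and monocytes (1836 and 1110 UMIs, log2 ratio 0.08, bounds -0.06 to 0.21). In dendritic cells Tmem173 was at 84.4 and 82.4 CPM, and in CD8 T cells at 42.0 and 31.0 CPM. Ltbr was at 61.2 and 58.5 CPM in macrophages and monocytes (log2 ratio -0.06, bounds -0.21 to 0.10) and at 28.2 CPM in dendritic cells of both libraries. In B, NK, CD8 and CD4 T cells Ltbr had between 1 and 7 UMIs per library. Ltbr RNA was thus measured in the myeloid classes, at close to the same level in both libraries, and was at the limit of detection in lymphocytes.

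B cells showed the widest difference in abundance. They were 51 of 6783 untreated cells (0.752%, exact Clopper-Pearson 95% interval 0.560 to 0.987) and 461 of 5333 combination cells (8.64%, 7.90 to 9.43), a ratio of 11.5 with bounds of 8.0 and 16.8. The share of CD4 T cells was 3.48% and 6.71% (ratio 1.93, 1.54 to 2.43), and that of CD8 T cells 12.3% and 17.9% (ratio 1.46, 1.29 to 1.65). NK cells held 261 and 259 cells, 3.85% and 4.86%, and the bounds of their ratio of 1.26 included 1 (0.991 to 1.61). All lymphocyte shares were higher in the combination, and only that of NK cells had bounds on both sides of 1.

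The myeloid shares were lower in the combination. Dendritic cells were 313 untreated cells (4.61%) and 122 combination cells (2.29%), a ratio of 0.496 (0.370 to 0.660). Macrophages and monocytes were 33.8% and 24.4% (ratio 0.721, 0.664 to 0.782), and neutrophils 216 cells (3.18%) and 58 cells (1.09%) (ratio 0.342, 0.228 to 0.505). Mixed cells were 14.1% of untreated and 7.5% of combination cells, and 782 and 193 of them passed both the macrophage and the neutrophil gate. With 5 UMIs in place of 3 asked of each gate, the ratio of macrophages and monocytes was 1.03 and lay on the other side of 1, that of dendritic cells was 0.696 and that of CD8 T cells 1.98. The sort, the gates and the lower depth of the combination library can each set a share, and their part was not tested.

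**Figure D1:**
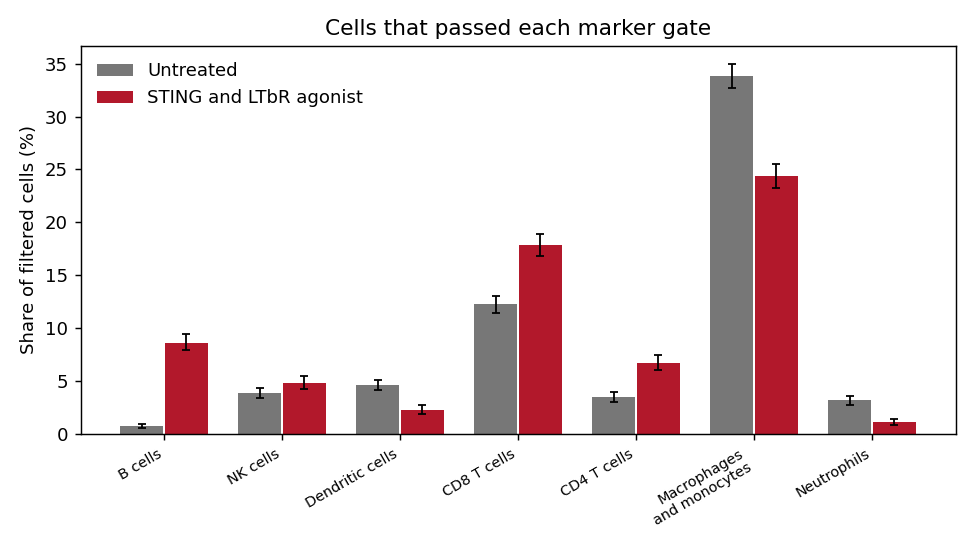
Share of kept cells (%) that passed each marker gate in the untreated (gray) and combination (red) libraries, 1 library each; error bars are exact Clopper-Pearson 95% intervals and cover counting error only. B cells stand at 0.752% and 8.64%, CD8 T cells at 12.3% and 17.9%, and macrophages and monocytes at 33.8% and 24.4%.

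In B cells, genes of antigen presentation on MHC class II were higher in the combination across the whole list. All 12 listed genes were counted and all 12 had a ratio above 0, with a median log2 ratio of 0.48 beside 0.05 over all 2902 genes counted in B cells. Cd74, the invariant chain that guides class II molecules, was at 10718 CPM in untreated and 14786 CPM in combination B cells (3226 and 39771 UMIs, log2 ratio 0.46, bounds 0.40 to 0.53). Ciita, the coactivator that drives class II genes, was at 76.4 and 153 CPM (log2 ratio 0.91, 0.25 to 1.61). H2-Oa, a chain of the peptide-loading regulator H2-O that B cells are known for, was at 96.3 and 205 CPM (29 and 551 UMIs, log2 ratio 1.01, 0.42 to 1.64). H2-Oa was the only list member past 2-fold, and it fell short of that under most other settings, with a lowest value of 0.79. The median of MHC class II presentation in B cells was 0.26 without immunoglobulin-rich cells and genes, a setting chosen after seeing the data. Depth limits these values, since the 51 untreated B cells held 300999 UMIs in all against 2689861 in the combination.

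Immunoglobulin genes made up much of what passed 2-fold in B cells. Of the 2902 genes counted, 39 were past 2-fold higher (1.34%) and 39 past 2-fold lower (1.34%). Of these, 21 of the higher and 16 of the lower genes were immunoglobulin genes, and for all 39 lower genes the 10 richest of the 51 untreated cells held at least 50% of the UMIs. Ighm, the heavy chain of IgM, was at 1249 CPM in untreated, 4072 CPM in LTβR agonist and 6711 CPM in combination B cells (376 and 18052 UMIs in the compared pair). Its log2 ratio was 2.42 (2.25 to 2.59), but 10 cells held 75.4% of its UMIs in the combination. With every cell given the same weight the ratio of Ighm was 1.08. Cells with at least 20% immunoglobulin UMIs, as plasma cells have, were 3 of 51 and 11 of 461, and immunoglobulin genes held 10.9% and 5.30% of B cell UMIs.

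Plasma cell genes were lower in combination B cells as summed, and this rested on those few cells. Of 10 counted members 8 were below 0, with a median of -0.58. Jchain, the joining chain of IgM and IgA polymers, was at 4189 CPM in untreated and 2084 CPM in combination B cells (log2 ratio -1.0, -1.12 to -0.89). Its 10 richest cells held 100% and 99.1% of its UMIs. Xbp1, the transcription factor of the secretory program, was at 468 and 162 CPM (log2 ratio -1.48, -1.84 to -1.11). Without the immunoglobulin-rich cells and with immunoglobulin genes left out of the total, a setting chosen after seeing the data, the values were 1.66 for Jchain, 0.11 for Xbp1 and 0.19 for the list median, so that no direction can be read for this list.

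Follicular and germinal center genes were close to the level of all B cell genes. Cells with a UMI of Fcer2a, Cr2 or Ighd were 35 of 51 (68.6%, 54.1 to 80.9) untreated and 357 of 461 (77.4%, 73.3 to 81.2) combination B cells, with overlapping intervals. All 14 listed follicular genes, Ighm among them, were counted and 10 were above 0, with a median of 0.15 that turned to -0.11 without immunoglobulin-rich cells and genes. Fcer2a, the low-affinity IgE receptor CD23, was at 96.3 and 161 CPM (29 and 432 UMIs, log2 ratio 0.68, 0.07 to 1.32). Only 3 of 14 listed germinal center genes were counted. Bcl6, the transcription factor of the germinal center, was at 59.8 and 61.3 CPM (18 and 165 UMIs, log2 ratio 0.03, -0.75 to 0.84). A difference of Bcl6 was not detectable at this depth, and bounds this wide leave room for a change in either direction.

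The genes that led the naming rule in B cells, which leaves out genes with 50% or more of their UMIs in 10 cells, were spread over many cells. The highest was Phgdh, the first enzyme of serine synthesis, at 23.3 and 82.5 CPM (7 and 222 UMIs, log2 ratio 1.48, 0.50 to 2.43). Arap2 (chromosome 5, 62602445 to 62766159, GRCm38), a regulator of ARF GTPases, was at 193 and 462 CPM (58 and 1242 UMIs, log2 ratio 1.22, 0.78 to 1.67). Ccr6, the receptor of CCL20, was at 66.4 CPM in untreated, 122 CPM in LTβR agonist and 142 CPM in combination B cells (log2 ratio 1.0, 0.30 to 1.73). Cxcr4, the receptor of CXCL12, was at 209 and 315 CPM (log2 ratio 0.57, 0.13 to 1.02). The list of lymphocyte homing and egress genes was not higher as a whole in B cells. Of its 12 counted members 5 were above 0 and 7 below, with a median of -0.03. Ltb, which encodes the β chain of the LTβR ligand, was at 216 and 310 CPM (log2 ratio 0.50, 0.07 to 0.95). The lowest gene under the rule was Rapgef1, an exchange factor of Rap1, at 183 and 126 CPM, and its bounds included 0 (-1.01 to 0.03).

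**Figure D2:**
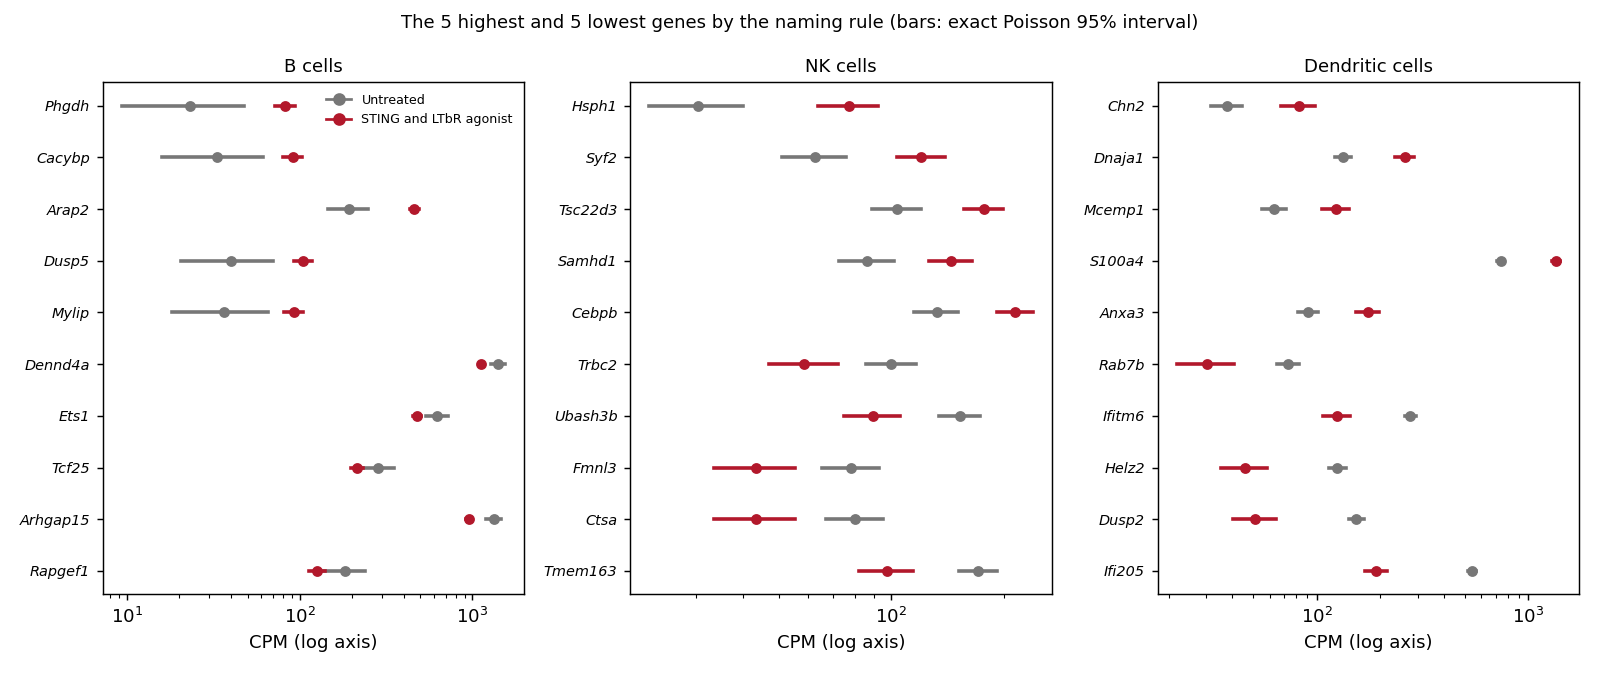
CPM on a log axis of the 5 highest and 5 lowest genes under the naming rule in B, NK and dendritic cells, for the untreated (gray) and combination (red) library; bars are exact Poisson 95% intervals. Intervals of untreated B cells are the widest because 51 cells stand behind them, as for Phgdh at 23.3 and 82.5 CPM.

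In NK cells very few genes differed by size. Of 3295 genes counted, 5 were past 2-fold higher (0.152%) and 0 past 2-fold lower (0%). The higher genes were Cxcl10, Cd74, H2-Aa, H2-Ab1 and Hsph1, and for the first 4 of them 10 cells held more than 70% of the combination UMIs. Cxcl10, a chemokine of the interferon response, was at 15.2 CPM in untreated and 144 CPM in combination NK cells (25 and 219 UMIs), with 97.3% of the latter in 10 cells. Cd74 was at 85.0 and 284 CPM (140 and 432 UMIs, log2 ratio 1.63, 1.28 to 1.98) and H2-Aa, a class II chain, at 25.5 and 82.8 CPM (log2 ratio 1.39, 0.83 to 1.94). Neither is known as an NK cell gene. The 7 macrophage markers summed to 40.7 CPM in untreated and 97.3 CPM in combination NK cells, with 6 of 7 higher. NK cells with at least 5 UMIs summed over Cst3, Lyz2, Cd74, H2-Aa, H2-Ab1 and H2-Eb1, genes of antigen-presenting cells, were 17 of 261 (6.51%) and 26 of 259 (10.0%). Without them, a setting chosen after seeing the data that removes cells by these very genes, the log2 ratio was 0.27 for Cd74 and 0.10 for H2-Aa.

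Hsph1, which encodes a co-chaperone of HSP70, was the one gene past 2-fold in NK cells that was spread over many cells. It was at 30.4 CPM in untreated, 74.7 CPM in STING agonist, 64.5 CPM in LTβR agonist and 76.9 CPM in combination NK cells (50 and 117 UMIs in the compared pair, log2 ratio 1.11, 0.56 to 1.65). Untreated NK cells thus had the lowest level of the 4 libraries. Tsc22d3, the glucocorticoid-induced leucine zipper, was at 104 and 177 CPM (log2 ratio 0.72, 0.35 to 1.09), and Samhd1, a nucleotide hydrolase that restricts viruses, at 86.2 and 145 CPM (log2 ratio 0.68, 0.29 to 1.08). Trbc2, a constant gene of the T cell receptor, was at 100 and 58.5 CPM (log2 ratio -0.69, -1.15 to -0.22), and the 7 T cell markers summed to 75.3 and 33.5 CPM.

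Cytotoxic genes of NK cells went in both directions. Of 17 counted members 8 were above 0 and 9 below, with a median of -0.01. Ccl5, a chemokine for T cells and monocytes, was at 2581 and 3971 CPM (log2 ratio 0.62, 0.54 to 0.70). Gzma, the gene of granzyme A, was at 3488 and 4423 CPM, while Gzmb was at 2358 and 2017 CPM and Prf1, the gene of perforin, at 734 and 561 CPM (log2 ratio -0.38, -0.56 to -0.21). Ifng, the gene of interferon-γ, was at 96.5 and 60.5 CPM (159 and 92 UMIs, log2 ratio -0.60, -1.06 to -0.13). The 20 counted NK receptors had a median of 0.04, and Klra3, an inhibitory Ly49 receptor, was lowest at 123 and 78.2 CPM.

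Dendritic cells of the combination had another makeup than those of untreated tumors. Type 1 dendritic cells, gated on Xcr1 and Clec9a and known for cross-presentation to CD8 T cells, were 86 of 313 untreated cells (27.5%, 22.6 to 32.8) and 18 of 122 combination cells (14.8%, 8.98 to 22.3). Cd209a dendritic cells were 46 (14.7%, 11 to 19.1) and 37 (30.3%, 22.3 to 39.3). Mature dendritic cells, gated on Fscn1 and Ccr7, were 143 (45.7%) and 54 (44.3%), with overlapping intervals. Of the 12 counted genes of type 1 dendritic cells 11 were below 0 (median -0.49), and within sub-gates of fixed weight the median was 0.10.

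Of 3221 genes counted in dendritic cells, 8 were past 2-fold higher (0.248%) and 11 past 2-fold lower (0.342%). Ltb was at 27.9 CPM in untreated, 29.3 in STING agonist, 33.3 in LTβR agonist and 90.9 CPM in combination dendritic cells (102 and 129 UMIs in the compared pair, log2 ratio 1.41, 0.97 to 1.85). Its level in the combination lay above that of the other 3 libraries, and 10 cells held 55.0% of its UMIs there. Ccl17, a chemokine for CCR4-bearing T cells, was at 58.3 and 174 CPM (log2 ratio 1.43, 1.09 to 1.77), and Mgl2, a lectin of Cd209a dendritic cells and macrophages, at 78.1 and 239 CPM (log2 ratio 1.5, 1.20 to 1.80). Klf2, a transcription factor of quiescence and trafficking, was at 96.1 and 210 CPM (log2 ratio 1.05, 0.75 to 1.35). For all 8 higher genes 10 of the 122 combination cells held at least 50% of the UMIs. With 5 UMIs asked of the gate, which left 53 untreated cells, Ccl17 was at 0.51 and Mgl2 at 0.40 and neither was past 2-fold. Within sub-gates of fixed weight the ratios of Ltb, Ccl17, Mgl2 and Klf2 lay between 1.27 and 1.70. The 7 B cell markers summed to 162 CPM in untreated and 221 CPM in combination dendritic cells, with 3 of 7 higher and the defining marker Cd79a at 0 in both libraries, and B cells of the combination carried Ltb at 310 CPM. The 7 macrophage markers summed to 228 and 294 CPM, with 4 of 7 higher, and the 7 T cell markers to 302 and 249 CPM, with 0 of 7 higher. The part of these cells was not tested.

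Genes induced by type I interferon were lower in combination dendritic cells almost throughout. Of 28 counted members 27 were below 0, with a median of -0.39 beside -0.02 over all genes counted, and none was past 2-fold. Isg15, a ubiquitin-like protein of the antiviral response, was at 722 CPM in untreated, 713 in STING agonist, 392 in LTβR agonist and 366 CPM in combination dendritic cells (2636 and 520 UMIs in the compared pair, log2 ratio -0.96, -1.14 to -0.78). Irf7, the transcription factor that amplifies type I interferon, was at 275 and 139 CPM (log2 ratio -0.94, -1.22 to -0.66), and Slfn5, a Schlafen family member, at 275 and 149 CPM (log2 ratio -0.84, -1.11 to -0.57). For Isg15 the combination stood near the LTβR agonist library and the untreated library near the STING agonist library. Ifi205, an interferon-induced gene that marks type 1 dendritic cells, was lowest under the rule at 541 and 191 CPM (log2 ratio -1.45, -1.68 to -1.23), and within sub-gates its ratio was -1.64. The median of the interferon list was -0.47 within sub-gates.

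Maturation genes of dendritic cells were lower more often than higher. Of 25 counted members 20 were below 0, with a median of -0.20, which was -0.03 within sub-gates of fixed weight. The other 5 were above 0, and Ccl17 was the highest of them with a log2 ratio of 1.43. Cd274, the gene of PD-L1, was at 638 and 378 CPM (log2 ratio -0.74, -0.92 to -0.56). Ccl22, a chemokine of mature dendritic cells, was at 387 and 229 CPM, and Il12b, the p40 chain of IL-12 and IL-23, at 245 and 150 CPM (log2 ratio -0.67, -0.95 to -0.40). Ccr7, the receptor that leads mature cells to lymph nodes, was at 1499 and 1380 CPM. Ccl22, Il12b and Ccr7 were named after their values were seen.

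CD8 T cells, at 831 and 952 cells the most deeply counted lymphocytes, had few genes past 2-fold. Of 3218 genes counted, 2 were past 2-fold higher (0.0622%) and 4 past 2-fold lower (0.124%). Of these 6 genes, 4 were T cell receptor β variable segments, which differ between clones. Trbv13-1 was at 44.2 CPM in untreated and 260 CPM in combination CD8 T cells, and Trbv3 at 383 and 44.0 CPM. The other 2 were Il1b, with a log2 ratio of -1.78 and 80.3% of its untreated UMIs in 10 cells, and Xcl1, the ligand of the type 1 dendritic cell receptor XCR1, at 106 and 46.1 CPM (log2 ratio -1.05, -1.28 to -0.82), with 66.0% in 10 cells. The ratio of Xcl1 was -0.61 without cells of high doublet score and -0.48 without cells rich in antigen-presenting cell genes.

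Naive and memory genes were more often higher than lower in combination CD8 T cells. Of 12 counted members 8 were above 0, with a median of 0.35 beside -0.03 over all genes counted. The other 4 were below 0, the lowest at -0.41. Lef1, a transcription factor of naive T cells, was at 43.1 CPM in untreated, 64.3 in STING agonist, 91.4 in LTβR agonist and 91.5 CPM in combination cells (279 and 649 UMIs in the compared pair, log2 ratio 0.94, 0.69 to 1.18). Tcf7, the gene of TCF-1, was at 40.8, 60.9, 79.0 and 79.6 CPM in the same order (log2 ratio 0.82, 0.57 to 1.07). Untreated cells were lowest for both genes. Klf2, which keeps the egress receptor S1PR1 expressed, was at 73.2 and 138 CPM (log2 ratio 0.83, 0.63 to 1.03), and Bcl2, a survival factor, at 357 and 547 CPM (log2 ratio 0.60, 0.50 to 0.70).

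Cytotoxic and exhaustion genes were more often lower than higher in the same cells. Of 19 counted cytotoxic genes 14 were below 0 (median -0.27), and of 16 inhibitory receptor and exhaustion genes 12 (median -0.22). Ccl5 was at 7558 and 4425 CPM (log2 ratio -0.77, -0.80 to -0.74), and Prf1 at 1299 and 796 CPM (log2 ratio -0.70, -0.77 to -0.63). Tox, a transcription factor of exhausted CD8 T cells, was at 490 CPM in untreated, 360 in STING agonist, 573 in LTβR agonist and 264 CPM in combination cells (log2 ratio -0.87, -0.98 to -0.75). Lag3, an inhibitory receptor, was at 737 and 526 CPM (log2 ratio -0.48, -0.57 to -0.39), while Pdcd1, the gene of PD-1, was at 471 and 480 CPM (log2 ratio 0.03, -0.07 to 0.13). Pdcd1 and Lag3 thus did not move together. Ifng was at 454 and 304 CPM (log2 ratio -0.56, -0.67 to -0.45). A mean over CD8 T cells cannot tell a change per cell from other shares of naive and effector cells.

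In CD4 T cells Il13, Il1rl1, Areg and Pparg were among the genes past 2-fold higher in the combination. Of 3412 genes counted, 13 were past 2-fold higher (0.381%) and 20 past 2-fold lower (0.586%). Il13, a type 2 cytokine, was at 18.4 CPM in untreated, 17.9 in STING agonist, 316 in LTβR agonist and 109 CPM in combination cells (23 and 235 UMIs in the compared pair, log2 ratio 2.07, 1.49 to 2.63). Its level in both libraries with the LTβR agonist lay above that in both without it, and 10 cells held 77.9% of its UMIs in the combination. With 5 UMIs asked of the gate the ratio of Il13 was 0.77. Il1rl1, the gene of the IL-33 receptor ST2, was at 76.7 and 261 CPM (log2 ratio 1.64, 1.27 to 2.02). Areg, the gene of amphiregulin, was at 411 and 1049 CPM (log2 ratio 1.33, 1.15 to 1.51). Pparg, a nuclear receptor of ST2-bearing T cells, was at 19.2 and 101 CPM (log2 ratio 1.93, 1.35 to 2.49), and Gata3, the transcription factor of type 2 helper cells, at 102 and 197 CPM (log2 ratio 0.88, 0.52 to 1.25).

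The helper T cell list as a whole was close to all genes counted. Of 16 counted members 10 were above 0, with a median of 0.07. Foxp3-positive cells, gated for regulatory T cells, were 53 of 236 (22.5%, 17.3 to 28.3) and 73 of 358 (20.4%, 16.3 to 24.9), and Foxp3 was at 182 and 147 CPM. Cell cycle genes were higher in all 7 counted members of 30 listed (median 0.96), with Mki67, a marker of dividing cells, at 36.8 and 143 CPM (log2 ratio 1.71, 1.22 to 2.20). For Mki67 10 cells held 73.7% of the combination UMIs, and with every cell given the same weight the list median was 0.42.

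Type I interferon genes were lower in combination CD4 T cells throughout the list. All 29 counted members were below 0, with a median of -0.50 beside -0.04 over all genes counted, and 2 of them were past 2-fold. Isg15 was at 316 CPM in untreated, 303 in STING agonist, 332 in LTβR agonist and 142 CPM in combination cells (395 and 306 UMIs in the compared pair, log2 ratio -1.10, -1.39 to -0.81). The combination was the lowest of the 4 libraries. Irf7 was at 155 and 50.1 CPM (log2 ratio -1.46, -1.88 to -1.03), and Slfn5 at 131 and 61.7 CPM (log2 ratio -0.98, -1.40 to -0.55). The 10 richest untreated cells held 51.9% of the Isg15 UMIs and 50% of the Irf7 UMIs, so the bounds of both genes are too narrow. CD4 T cells with at least 5 UMIs of the antigen-presenting cell genes named for NK cells were 13.1% of untreated and 20.7% of combination cells, and the median without them was -0.44. Isg15 and Irf7 were not past 2-fold without them. The 6 plasmacytoid dendritic cell markers, of a cell type known for interferon, summed to 471 CPM in untreated and 272 CPM in combination CD4 T cells, with 0 of 6 higher and 3 at 0 in the combination. Most of that sum was Runx2, and the part of such cells was not tested.

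Some of the largest differences in CD4 T cells came from few cells. For 19 of the 20 lower genes the 10 richest untreated cells held at least 50% of the UMIs. Ccl4, a chemokine of cytotoxic cells, was at 1333 and 156 CPM (log2 ratio -3.01, -3.23 to -2.80), with 83.6% of its untreated UMIs in 10 cells. H2-Aa was at 444 and 115 CPM (log2 ratio -1.86, -2.15 to -1.58), with 96.6% in 10 cells, and its ratio was 0.47 without cells rich in antigen-presenting cell genes. The class II genes of CD4 T cells, with a median of -1.75 over 6 members, had the opposite sign with 5 UMIs asked of each gate (median 0.16), so that no direction can be read. The same list in CD8 T cells had a median of -0.70 over 5 members, but the median of MHC class II presentation in CD8 T cells was 0.73 with the stricter gate, 0.85 without cells of high doublet score and 0.04 without such cells, so that here too no direction can be read.

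**Figure D3:**
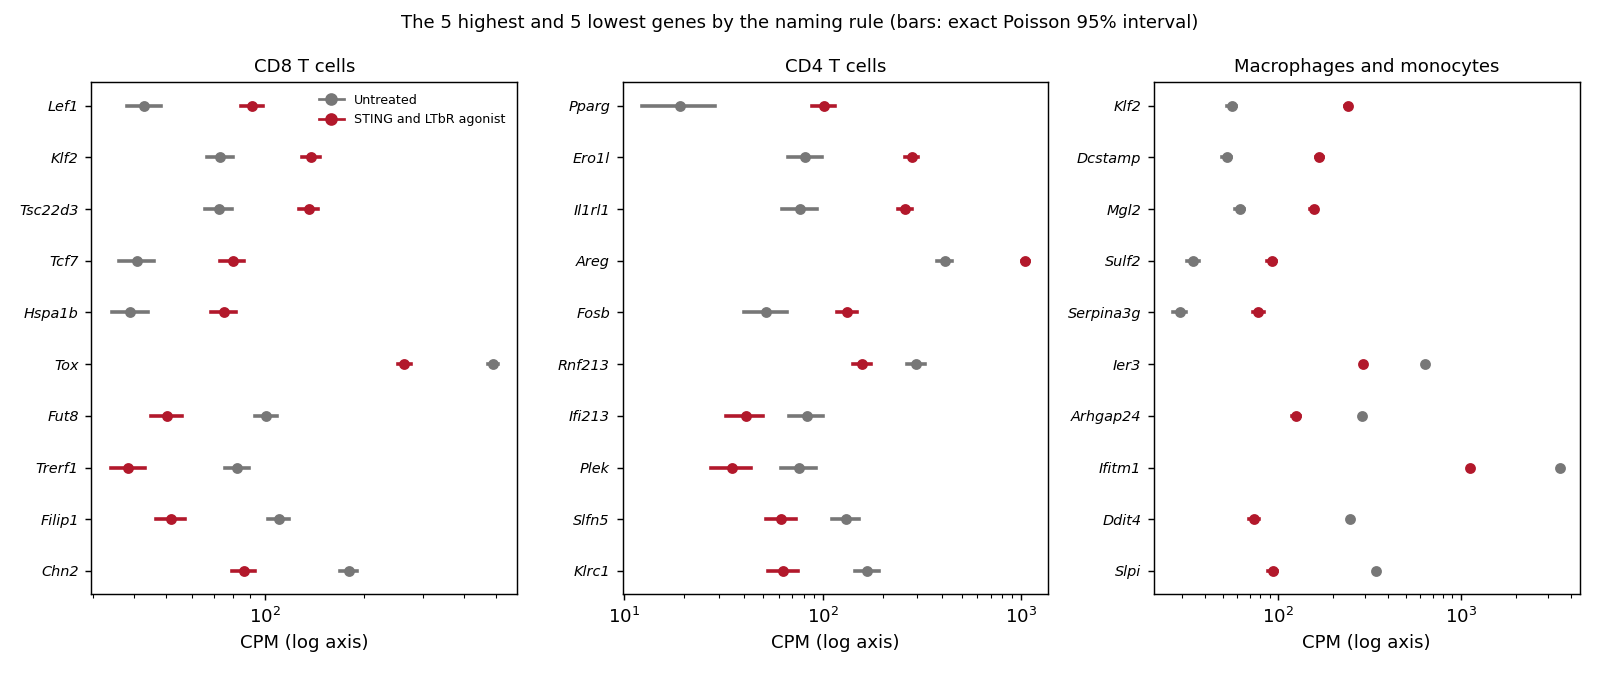
CPM on a log axis of the 5 highest and 5 lowest genes under the naming rule in CD8 T cells, CD4 T cells, and macrophages and monocytes, for the untreated (gray) and combination (red) library; bars are exact Poisson 95% intervals. Lef1 in CD8 T cells stands at 43.1 and 91.5 CPM, Pparg in CD4 T cells at 19.2 and 101 CPM, and Ifitm1 in macrophages and monocytes at 3466 and 1125 CPM.

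Macrophages and monocytes, at 2292 and 1299 cells, gave the narrowest bounds. Of 3136 genes counted, 12 were past 2-fold higher (0.383%) and 9 past 2-fold lower (0.287%). Genes of alternative activation were higher in 9 of 11 counted members (median 0.80). Retnla, a secreted protein of alternatively activated macrophages, was at 22.5 CPM in untreated, 21.7 in STING agonist, 230 in LTβR agonist and 291 CPM in combination cells (log2 ratio 3.21, 3.07 to 3.35). Chil3, a chitinase-like protein, was at 89.4 and 472 CPM (log2 ratio 2.28, 2.18 to 2.37), and Mrc1, the mannose receptor, at 91.3 and 188 CPM (log2 ratio 0.96, 0.85 to 1.08). Retnla was high in both libraries with the LTβR agonist, and 10 cells held 70.8% of its UMIs in the combination. For Chil3 10 cells held 52.1% there. Among genes with a mean CPM of at least 200 the median of the alternative activation list was -0.14. Of 14 counted monocyte genes 9 were below 0 (median -0.40), and Chil3 was the highest of that list.

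Klf2 was the highest gene under the naming rule in these cells, at 55.9 CPM in untreated, 107 in STING agonist, 111 in LTβR agonist and 242 CPM in combination cells (log2 ratio 1.93, 1.81 to 2.05). Each library with 1 agonist lay between the untreated and the combination level. Klf2 was above 0.5 in log2 ratio in NK, dendritic and CD8 T cells as well, and below 0 in B and CD4 T cells. The lowest were Slpi, a protease inhibitor, at 344 and 93.9 CPM (log2 ratio -1.77, -1.88 to -1.66), Ddit4, an inhibitor of mTORC1 that stress induces, at 249 and 74.1 CPM (log2 ratio -1.62, -1.74 to -1.5), and Ifitm1, a membrane protein that restricts viruses, at 3466 and 1125 CPM (log2 ratio -1.61, -1.65 to -1.58). C1q-high macrophages were 39.2% and 35.2% of the class, and Ly6c2 monocytes 44.7% and 46.9%.

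Inflammatory and interferon genes of macrophages differed by list. Of 17 counted inflammatory genes 14 were below 0 (median -0.16), with Ccl5 at 1385 and 681 CPM (log2 ratio -1.01, -1.06 to -0.97) and Ptgs2, the gene of COX-2, at 413 and 268 CPM (log2 ratio -0.60, -0.68 to -0.53). Of 46 counted type I interferon genes 39 were below 0 (median -0.16 beside 0.04 over all genes counted). Genes induced by interferon-γ were above 0 in 10 of 17 members (median 0.12), and Cxcl9, the ligand of CXCR3, was highest at 329 CPM in untreated, 499 in STING agonist, 230 in LTβR agonist and 570 CPM in combination cells (log2 ratio 0.77, 0.71 to 0.84). Interferon lists of the 2 types were thus not lower together in this class.

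Neutrophils had 58 combination cells with 146618 UMIs, too few to read single genes. Of 2805 genes counted, 88 were past 2-fold higher (3.14%) and 116 past 2-fold lower (4.14%), and for all 88 higher genes 10 cells held at least 50% of the UMIs. Cxcr4, a receptor of aged neutrophils, was highest under the naming rule at 382 and 600 CPM (230 and 88 UMIs, log2 ratio 0.64, 0.14 to 1.12). Ttc39b was lowest at 186 and 27.3 CPM (112 and 4 UMIs), with bounds from -3.74 to -1.03. The 7 macrophage markers summed to 1675 and 2912 CPM in neutrophils, and their part was not tested.

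The median heat shock gene was higher in the combination in 6 classes. These genes encode chaperones that refold proteins and are switched on by the transcription factor HSF1, which binds inverted GAA repeats. All counted members were above 0 in NK cells (8 of 8, median 0.27), dendritic cells (8 of 8, 0.34), CD8 T cells (9 of 9, 0.41), CD4 T cells (7 of 7, 0.35) and macrophages and monocytes (8 of 8, 0.40), and 4 of 6 were in B cells (median 0.30). Medians over all genes counted lay between -0.04 and 0.05 in these classes. Outside this count the inducible HSP70 genes had the opposite sign in 3 classes where they were too low to be counted: Hspa1a was at 40.1 and 17.1 CPM in NK cells, 59.1 and 13.4 CPM in CD4 T cells and 49.8 and 4.09 CPM in B cells, with almost all UMIs in 10 cells. Dnaja1, a partner of HSP70, was at 245 CPM in untreated, 381 in STING agonist, 328 in LTβR agonist and 387 CPM in combination CD8 T cells (log2 ratio 0.64, 0.52 to 0.76). In macrophages and monocytes Dnaja1 was at 121, 165, 213 and 207 CPM in the same order (log2 ratio 0.73, 0.62 to 0.83). In both classes the untreated library was the lowest of the 4. Hspa8, the constitutive HSP70, was at 1148 and 1524 CPM in macrophages and monocytes (log2 ratio 0.41, 0.37 to 0.44). In B cells Hsp90aa1 had the opposite sign, at 399 and 288 CPM (log2 ratio -0.46, -0.81 to -0.10). The share of barcodes over 6% mitochondrial UMIs was also higher in the combination (6.78% against 2.71%), and its part was not tested. Each treatment was 1 pool, so that the treatment and the pool cannot be told apart.

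The promoters of these genes are shown because their members were higher together in most classes. RefSeq promoters (GRCm38.p6, 250 bases before to 50 after the start) were searched on both strands for GAANNTTC, a core of the heat shock element that reads the same on both strands. It was found in 8 of the 10 heat shock genes with a promoter in the table, of 14 listed, and in 2582 of all 32851 promoters (7.86%). A gene was counted when any of its promoters held a match, whereas the 7.86% counts each promoter on its own. The 2 shares are therefore unlike measures. Capitals mark the match in a promoter of Hsph1 (chr5:149636287-149636586, minus strand), the leading gene in NK cells, and of Dnaja1 (chr4:40722218-40722517, plus strand), which was among the highest genes in dendritic cells. The Hsph1 match lies at the end of the stretch, after the start, and that of Dnaja1 before the start. The table lists 2 promoters of Hsph1, both with 1 match, and 3 of Dnaja1, of which the other 2, from starts further downstream, hold 0 matches.
Hsph1: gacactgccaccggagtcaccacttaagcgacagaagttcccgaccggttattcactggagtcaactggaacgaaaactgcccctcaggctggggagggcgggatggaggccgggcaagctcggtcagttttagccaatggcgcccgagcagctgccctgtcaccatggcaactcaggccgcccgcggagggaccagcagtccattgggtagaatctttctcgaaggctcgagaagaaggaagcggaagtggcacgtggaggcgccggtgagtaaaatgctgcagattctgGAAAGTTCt
Dnaja1: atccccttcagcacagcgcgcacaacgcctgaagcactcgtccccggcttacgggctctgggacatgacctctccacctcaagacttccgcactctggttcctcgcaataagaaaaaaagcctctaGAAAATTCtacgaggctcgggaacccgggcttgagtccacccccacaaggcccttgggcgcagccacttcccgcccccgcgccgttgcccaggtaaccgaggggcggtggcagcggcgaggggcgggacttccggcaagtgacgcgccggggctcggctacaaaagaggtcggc

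The type I interferon list was searched in the same promoters for the core of the interferon-stimulated response element, GAAA, any 2 bases and GAAA again, to which interferon-activated STAT complexes bind. It was found in 23 of the 38 listed genes with a promoter (60.5%), of 52 listed, and in 1131 of all 32851 promoters (3.44%). Here too the first share is per gene, by any of its promoters, and the other is per promoter. Isg15 (chr4:156200769-156201068, minus strand) held 3 overlapping matches and Slfn5 (chr11:82951852-82952151, plus strand) 1 match, in capitals. Both genes are shown because they were lower in dendritic and in CD4 T cells. A match describes the letters only.
Isg15: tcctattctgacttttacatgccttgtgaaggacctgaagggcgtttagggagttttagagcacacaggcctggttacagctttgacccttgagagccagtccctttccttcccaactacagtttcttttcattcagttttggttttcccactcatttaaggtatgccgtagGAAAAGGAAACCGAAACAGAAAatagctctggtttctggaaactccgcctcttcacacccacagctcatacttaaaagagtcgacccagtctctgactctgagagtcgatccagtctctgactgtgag
Slfn5: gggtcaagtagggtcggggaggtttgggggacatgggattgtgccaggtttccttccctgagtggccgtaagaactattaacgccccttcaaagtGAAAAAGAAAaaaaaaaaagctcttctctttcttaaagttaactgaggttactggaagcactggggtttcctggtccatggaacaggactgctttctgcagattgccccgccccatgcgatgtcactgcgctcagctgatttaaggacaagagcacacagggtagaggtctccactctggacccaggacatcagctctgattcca

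Across classes the interferon list did not share 1 direction. Its median was -0.50 in CD4 T cells (0 of 29 above 0), -0.39 in dendritic cells (1 of 28), -0.16 in macrophages and monocytes (7 of 46), -0.14 in B cells (4 of 10), 0.02 in CD8 T cells (16 of 28) and 0.10 in NK cells (15 of 21). In CD8 T cells Isg15 was at 157 and 176 CPM (log2 ratio 0.15, -0.01 to 0.31), whereas it was lower in CD4 T cells. The difference between classes was not tested. MHC class I genes lay closer to all genes, with medians from -0.24 in CD4 T cells to 0.07 in NK cells, and NF-κB subunits and feedback genes had medians from -0.13 in NK cells to 0.10 in CD8 T cells. Map3k14, the kinase NIK of the non-canonical branch, was at 81.6 and 55.3 CPM in macrophages and monocytes (log2 ratio -0.49, -0.64 to -0.33), and Nfkb2, an NF-κB subunit of the same branch, at 61.3 and 87.2 CPM (log2 ratio 0.45, 0.30 to 0.59).

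**Figure D4:**
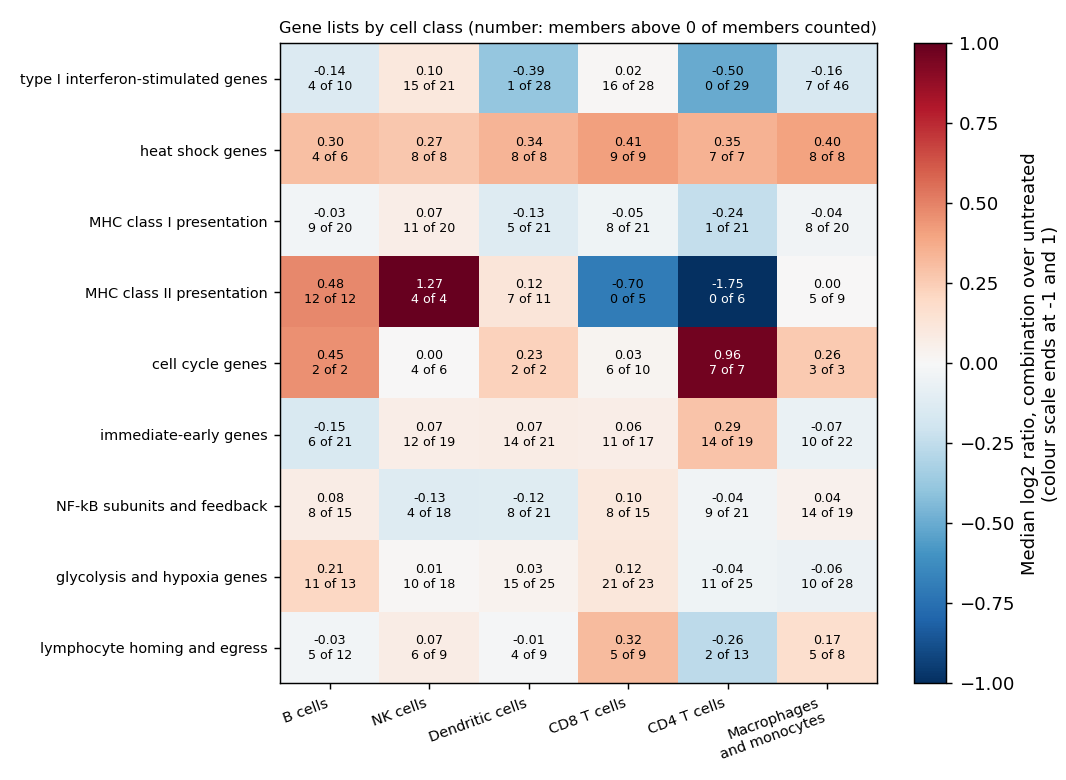
Median log2 ratio of combination over untreated for 9 gene lists (rows) in 6 cell classes (columns), with the number of members above 0 of those counted; red is higher and blue lower in the combination, and the color scale ends at -1 and 1. The heat shock row is above 0 in all 6 classes (0.27 to 0.41, though -0.09 in B cells at a mean CPM of 20), and the interferon row runs from -0.50 in CD4 T cells to 0.10 in NK cells.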

How the data were processed

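Live CD45+ leukocytes of KPC tumors were profiled with 10x Genomics 5′ chemistry in 4 libraries, 1 per treatment. The authors counted UMIs with Cell Ranger 7.1.0 against mm10 and deposited raw counts, a matrix of 32285 genes and 24839 barcodes with whole numbers only. The study's own limits were applied: 300 to 5000 genes and at most 6% mitochondrial UMIs. A cell passed a class with UMIs of at least 2 marker genes and at least 3 UMIs over the panel; NK cells had at most 1 UMI of the T cell panel, and dendritic cells did not pass the macrophage gate. Doublets were kept and scored with Scrublet (scanpy 1.11.5). Class sums, CPM and intervals were computed with Python 3.11.15, numpy 2.4.6, scipy 1.17.1 and pandas 2.3.3, and the scripts were tested on simulated data. Named genes were the 5 highest and 5 lowest counted genes of a class with a UMI in at least 5% of cells and less than 50% of UMIs in the 10 richest cells of the higher library, and up to 4 members of each list. The 5 highest and 5 lowest left out immunoglobulin genes, V, D and J segments of T cell receptors, ribosomal and mitochondrial genes and unnamed gene models. Other genes named, among them the remaining genes past 2-fold, cytotoxic genes and Cd74 in B cells, were chosen after their values were seen. Members and lists were chosen with earlier results of these data known. Cd244, Cxcl11, Mx1, Mx2 and Sting1 were not analysed here under those symbols. Gene positions follow GENCODE M21.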

Additional observations from a re-analysis of the deposited data

How the results depend on the processing

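No paired analysis was possible because each group had 1 library, for which reason no library could be left out either. Shares moved with 5 UMIs asked of each gate: the ratio was 0.696 for dendritic cells, 1.98 for CD8 T cells and 1.03 for macrophages and monocytes, which reversed, and over cells in 1 gate only the last was 0.654. Counts of genes past 2-fold depended on every threshold. In B cells 78 became 131 with the stricter gate, 44 with 50 CPM added, 193 and 34 at a mean CPM of 20 and 200, 148 with equal weight per cell and 45 without immunoglobulin-rich cells and genes. In NK cells 5 became 3, 2, 10 and 0 under the first 4 of these settings, and 2 both without high doublet scores and without cells rich in antigen-presenting cell genes. In dendritic cells 19 became 195, 7, 40 and 3, 31 with equal weight per cell and 29 within sub-gates. In CD8 T cells 6 became 16, 3, 14 and 1, and 10 with 1 CPM added. In CD4 T cells 33 became 67 and 12 at a mean CPM of 20 and 200, and 21 without cells rich in antigen-presenting cell genes. In macrophages and monocytes 21 became 8 with 50 CPM added and 9 at a mean CPM of 200. In neutrophils 204 became 465, 68, 524 and 31.

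Among values past 2-fold and list medians over 1 in size, single values reversed mostly under the stricter gate: 0.25 for Cxcl10 in B cells, -0.0438 for H2-Ab1 in NK cells, -0.00539 for the median of MHC class II presentation in NK cells, 0.76 for Ccl5 and 0.61 for Cxcl10 in dendritic cells, and in CD4 T cells 0.33 for Gzmc, 0.54 for H2-Aa, 0.21 for H2-Ab1, 0.20 for H2-Eb1 and 0.16 for the class II median. With all barcodes the NK values were -0.45 for Cd74, -0.65 for H2-Aa, -0.83 for H2-Ab1 and -0.55 for the class II median. Jchain in B cells was 2.17 within sub-gates and 1.66 without immunoglobulin-rich cells, where Xbp1 was 0.11. Without cells rich in antigen-presenting cell genes H2-Aa in CD4 T cells was 0.47 and H2-Eb1 in CD4 T cells 0.0617. Values below 2-fold could turn as well: in CD8 T cells, without high doublet scores, Cd74 was 1.03, H2-Aa 0.83, H2-Ab1 1.11, H2-Eb1 0.85 and the class II median 0.85, against -0.70 for that median as reported. The cause was not tested. The settings on immunoglobulin-rich cells and on antigen-presenting cell genes were chosen after seeing the data. Over all settings the heat shock median stayed between 0.11 and 0.46 in NK, dendritic, CD8, CD4 and macrophage classes and between -0.09 (at a mean CPM of 20) and 0.38 in B cells. The interferon median stayed between -0.68 and -0.28 in dendritic cells and between -0.56 and -0.39 in CD4 T cells. Depth limits B cells (51 untreated cells) and neutrophils (58 combination cells) most.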

Other observations

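Other cytokines of CD4 T cells, named after their values were seen, were too low on average to be counted. Il5, which acts on eosinophils, was at 4.00 CPM in untreated, 2.24 in STING agonist, 17.2 in LTβR agonist and 59.4 CPM in combination CD4 T cells (5 and 128 UMIs in the compared pair, log2 ratio 2.31, bounds 1.62 to 2.83). Il4, which drives class switching in B cells, was at 10.4, 2.24, 24.6 and 44.5 CPM in the same order (log2 ratio 1.42, 0.73 to 2.05). Both stood highest in the combination. Il17a, which recruits neutrophils, was at 75.1, 61.1, 125 and 19.0 CPM (94 and 41 UMIs in the compared pair, log2 ratio -1.55, -2.11 to -0.98) and stood lowest there.

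Mixed cells that passed both the B and the T cell gate were 1 in the untreated and 43 in the combination library, and those that passed both the B and the macrophage gate were 4 and 47. The 7 B cell markers summed to 25.5 CPM in untreated and 58.1 CPM in combination CD8 T cells, and to 21.0 and 46.8 CPM in macrophages and monocytes. Doublet scores over 0.2 were less frequent in the combination, and the cause of these mixtures was not tested.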
